A study of Homo sapiens with 6 samples.

Results

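APP and APLP2, the amyloid precursor protein gene and its close relative, were followed through the C-to-U edits that long reads showed in HEK293T, a line derived from human embryonic kidney. Every listed edit whose isoform belongs to APP or APLP2 in GENCODE release 44 was taken, which gave 827 of the 837533 pairs of isoform and edited position in the 6 libraries. These pairs fell on 3 isoforms of APP and 2 isoforms of APLP2, out of 9831 isoforms with a listed edit. GENCODE release 44 annotates 20 transcripts for APP and 26 for APLP2, and the others had no listed edit. In RBFOX2-INSCRIBE (2 libraries), fixed cells were incubated with a rabbit antibody against RBFOX2 and then with APO1-Nb, a purified fusion of the cytidine deaminase APOBEC1 and a nanobody that binds rabbit antibodies. The enzyme-only control (2 libraries) received APO1-Nb without the antibody, and the buffer-only control (2 libraries) received neither. All 3 groups shared the cell line, fixation on slides and the overnight incubation in editing buffer. The fixative of these libraries is not given in the sources used here. Replicates were separate slides or wells of 1 cell line, so p-values measure only the spread between these libraries, which may be technical.

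APP is a membrane protein that secretases cut, and its beta- and gamma-secretase products include the amyloid-beta peptide. Its isoforms differ by exon 7, which encodes a Kunitz protease inhibitor (KPI) domain, and by exon 8. APLP2 has a similar domain structure and a KPI exon of its own, but no amyloid-beta sequence. RBFOX2 is a splicing regulator that binds UGCAUG, and APOBEC1 converts C to U in RNA. The values below are numbers of edited Cs and fractions of edited reads, and say nothing of the level of either RNA.

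The APP isoforms lie on the minus strand of chromosome 21 (hg38) and share a 3′ end at 25880550. APP770 (ENST00000346798) has 18 exons, 3583 nt and 805 Cs, and encodes 770 residues. APP751 (ENST00000357903) lacks the 57 nt of exon 8 and has 796 Cs. APP695 (ENST00000348990) lacks exons 7 and 8 and has 745 Cs. All 3 APP isoforms have the same 3′ UTR of 1120 nt with 198 Cs. The APLP2 isoforms lie on the plus strand of chromosome 11 and start at 130069894. APLP2-751 (ENST00000338167) has 17 exons, including a KPI exon of 168 nt, and 838 Cs. APLP2-695 (ENST00000528499) lacks that exon and has an earlier 3′ end, with a 3′ UTR of 358 nt where that of APLP2-751 has 1357 nt.

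UGCAUG was searched on the RNA strand in the exons of these isoforms. APP had 3 copies, in exon 5, in exon 7 and in the 3′ UTR within exon 18, and APLP2 had 1 copy, in exon 2. The 3′ UTR of APLP2 had neither UGCAUG nor GCAUG, whereas 38.3% of all listed coding isoforms with a 3′ UTR had UGCAUG in it. The 4 copies are given with their surroundings in the mature RNA, 5′ to 3′ and with the motif in capitals, because the edits are described by their distance from them.
APP exon 5, chr21:26051151-26051180: agaguaccaacuUGCAUGacuacggcaugu
APP exon 7, chr21:26000022-26000051: acagaagaguacUGCAUGgccguguguggc
APP 3′ UTR, chr21:25881372-25881401: aacuagUGCAUGaauagauucucuccugau
APLP2 exon 2, chr11:130109499-130109528: uaaauaUGCAUGugaacauucagacuggga
APP695 lacks exon 7 and therefore the copy in it.

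A position was counted as an edited C when it lay in an exon and on the strand of its isoform, which held for 811 of the 827 pairs. The other 16 pairs lay on the opposite strand of APP exon 1, and none belonged to APLP2. Over all genes, the libraries listed 203651 and 209077 such pairs in RBFOX2-INSCRIBE, 86379 and 155189 in enzyme-only replicates 2 and 3, and 73078 and 71769 in the buffer-only control. Enzyme-only replicate 2 therefore stood apart from replicate 3 before any gene was looked at, and results that rest on the enzyme-only control are given by replicate. Read numbers do not accompany the edits, so the depth behind each count and fraction is not given directly. Fractions rise in steps of 1 read, as in the 0.299%, 0.597% and 0.896% listed for APP770 in RBFOX2-INSCRIBE replicate 1. Where the lowest listed fraction is 1 edited read, a higher one means fewer reads. No position of APP or APLP2 was listed in all 4 libraries treated with APO1-Nb, and neither was any position of another gene. Edits present in every one of them are thus absent from these counts, and any such site cannot be seen.

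APP was edited at more positions in each RBFOX2-INSCRIBE library than in any control library. Of the 814 distinct Cs in its isoforms, 141 and 147 were edited in RBFOX2-INSCRIBE, 30 and 100 in enzyme-only replicates 2 and 3, and 55 and 51 in the buffer-only control. Both RBFOX2-INSCRIBE libraries were above all 4 control libraries, while enzyme-only replicate 2 was below the buffer-only libraries. APLP2 had fewer edited Cs in every library. Of its 838 distinct Cs, 57 and 62 were edited in RBFOX2-INSCRIBE, 19 and 45 in enzyme-only replicates 2 and 3, and 14 and 25 in the buffer-only control. The groups of RBFOX2-INSCRIBE and of the controls did not overlap for APLP2 either. This order was common: in 51.8% of 5088 genes tested, neither enzyme-only library reached either RBFOX2-INSCRIBE library.

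Against the enzyme-only control, APP was 2.61-fold higher (log2 difference 1.38, SE 0.61, limma adjusted p = 0.256) and APLP2 was 2.01-fold higher (1.01, SE 0.66, limma adjusted p = 0.374), in edited Cs per C. Neither passed an adjusted p of 0.05, which 0.118% of the 5088 genes passed, and 864 genes had an unadjusted p under 0.05. The median gene was 1.80-fold higher, and 78.2% of genes had a smaller difference than APP and 59.5% a smaller one than APLP2. Leaving out enzyme-only replicate 3 brought both to significance, at 2.24 for APP (limma adjusted p = 0.0252) and 1.62 for APLP2 (limma adjusted p = 0.0302). Without it, however, the lone enzyme-only library was assumed to vary like the RBFOX2-INSCRIBE libraries, and 1664 of 5115 genes were called. Scaling every library to the same total of edited Cs moved the median difference from 0.85 to 0.05, that of APP to 0.57 (SE 0.34) and that of APLP2 to 0.20 (SE 0.32).

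Against the buffer-only control, both genes passed the test, as did 61.1% of the 4802 genes tested. APP rose 2.70-fold (log2 difference 1.43, SE 0.17, limma adjusted p = 0.000763) and APLP2 rose 3.12-fold (1.64, SE 0.34, limma adjusted p = 0.00574). The median gene was 2.91-fold higher, and 46.2% of genes had a smaller difference than APP and 54.3% a smaller one than APLP2. With the same scaling, which moved the median difference from 1.54 to 0.10, it was -0.05 for APP and 0.17 for APLP2, and neither was called. Leaving out either RBFOX2-INSCRIBE library also ended both calls, with differences of 1.46 and 1.40 for APP and 1.70 and 1.58 for APLP2. Between the enzyme-only and buffer-only controls neither gene was called (0.05, SE 0.58, for APP and 0.63, SE 0.67, for APLP2), against 0.547% of 4208 genes, and with scaling both differences were below 0.

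APP751 and APP770 carried nearly all edits of APP. APP751 had 88 and 93 edited Cs in RBFOX2-INSCRIBE, 14 and 65 in enzyme-only replicates 2 and 3, and 28 and 23 in the buffer-only control. For APP770 the numbers were 70 and 69, then 16 and 35, then 26 and 23. In both isoforms the RBFOX2-INSCRIBE libraries were above every control library, and the share of all isoforms with this order was not computed. APP695, the form that prevails in neurons, had 5 and 14 edited Cs in RBFOX2-INSCRIBE, 0 and 3 in enzyme-only replicates 2 and 3, and 2 and 6 in the buffer-only control. Its RBFOX2-INSCRIBE and buffer-only libraries overlapped, and it passed the minimum of 5 edited Cs on average only through the RBFOX2-INSCRIBE libraries.

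The listed fractions of APP695 were also of another size. The lowest fraction listed for it in any library was 2.33% and the highest was 16.7%. In APP751 and APP770 the median fraction was between 0.197% and 0.758% in every library. A minimum fraction of 0.02, which the study applied to isoforms, left 5 and 14 edited Cs of APP695 in RBFOX2-INSCRIBE, 1 and 0 of APP770, and none of APP751 in these libraries. With that minimum the RBFOX2-INSCRIBE edits of APP thus came almost entirely from the isoform with the fewest edited Cs. Every listed edit of APP695 passed the minimum, since its lowest fraction in any library was 2.33%. An edited read counts for a higher fraction where an isoform has fewer reads, and the part of that was not tested.

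APLP2-751 had 30 and 45 edited Cs in RBFOX2-INSCRIBE, 7 and 36 in enzyme-only replicates 2 and 3, and 7 and 16 in the buffer-only control. APLP2-695 had 29 and 21 in RBFOX2-INSCRIBE, 12 and 11 in enzyme-only replicates 2 and 3, and 7 and 10 in the buffer-only control. The RBFOX2-INSCRIBE and enzyme-only libraries overlapped for the long form and did not overlap for the short form. The share of all isoforms without overlap was not computed. Enzyme-only replicate 2 had the highest lowest-listed fraction of all 6 libraries in each of APP770, APP751, APLP2-751 and APLP2-695, at 0.758%, 0.571%, 1.75% and 0.926%. It also had the fewest edited Cs in APP770 and APP751. The part of read depth in that was not tested.

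Of the 5 isoforms, 4 rose against the buffer-only control, all except APP695, where 60% of 5361 isoforms did. The log2 difference was 1.81 (SE 0.24, limma adjusted p = 0.000896) for APP751 and 1.49 (SE 0.25, limma adjusted p = 0.00226) for APP770. It was 1.74 (SE 0.48, limma adjusted p = 0.0164) for APLP2-751 and 1.50 (SE 0.39, limma adjusted p = 0.0121) for APLP2-695. Both APLP2 calls were lost without buffer-only replicate 1, at 1.17 for APLP2-751 and 1.26 for APLP2-695, and all 4 were lost with either RBFOX2-INSCRIBE library left out or with scaling.

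Against the enzyme-only control none of the 5 isoforms was called, against 0.0525% of 5715 isoforms. The differences ran from 1.07 (SE 0.67) for APLP2-695 to 1.56 (SE 0.69) for APP751, leaving out APP695, which entered the fit only through RBFOX2-INSCRIBE. APP770 and APP751 had unadjusted p-values of 0.0252 and 0.0304 in limma, and 926 isoforms had one under 0.05. Between the enzyme-only and buffer-only controls none of the 4 isoforms tested was called, against 0.812% of 4436. Within a gene, the gain of the 2 most edited isoforms did not differ detectably. The difference of gains was 0.03 (SE 0.64) between APP751 and APP770 and 0.10 (SE 0.99) between the APLP2 isoforms, and 0% of 580 gene pairs were called by limma, with 26 at an unadjusted p under 0.05.

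Although APP770 and APP751 share nearly all of their sequence, most edited positions in a library were listed for only 1 of the 2. In RBFOX2-INSCRIBE replicate 1, 21 positions were edited in both, which was 30% of those of APP770 and 23.9% of those of APP751. In replicate 2 the shared positions numbered 19, or 27.5% and 20.4%. The controls shared between 0 and 3 positions per library. For the APLP2 isoforms the shared positions numbered 2 and 4 in RBFOX2-INSCRIBE and at most 2 in any control library. In RBFOX2-INSCRIBE replicate 1 the median fraction was 0.300% for APP770 and 0.197% for APP751, beside lowest fractions of 0.299% and 0.195%. Between the RBFOX2-INSCRIBE libraries, 45.4% of the smaller set of APP positions recurred, and 25.1% over all genes. Whether the isoforms differed beyond the sampling of few edited reads was not tested.

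The gap between RBFOX2-INSCRIBE and the controls was wider in the 3′ UTR of APP than in its coding sequence. Of its 198 Cs, 64 and 78 were edited in RBFOX2-INSCRIBE, 9 and 38 in enzyme-only replicates 2 and 3, and 9 and 13 in the buffer-only control. The means were 71 ± 9.90 (SD, n = 2), 23.5 ± 20.5 and 11 ± 2.83 edited Cs. In the coding sequence, 71 and 67 of 559 Cs were edited in RBFOX2-INSCRIBE, 20 and 59 in enzyme-only replicates 2 and 3, and 44 and 36 in the buffer-only control. RBFOX2-INSCRIBE was above all controls in both regions, and how often this holds over all genes was not computed. By isoform, the plot of edited Cs by region shows the gap of APP770 and APP751 in the 3′ UTR and the smaller one in the coding sequence.

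**Figure D1:**
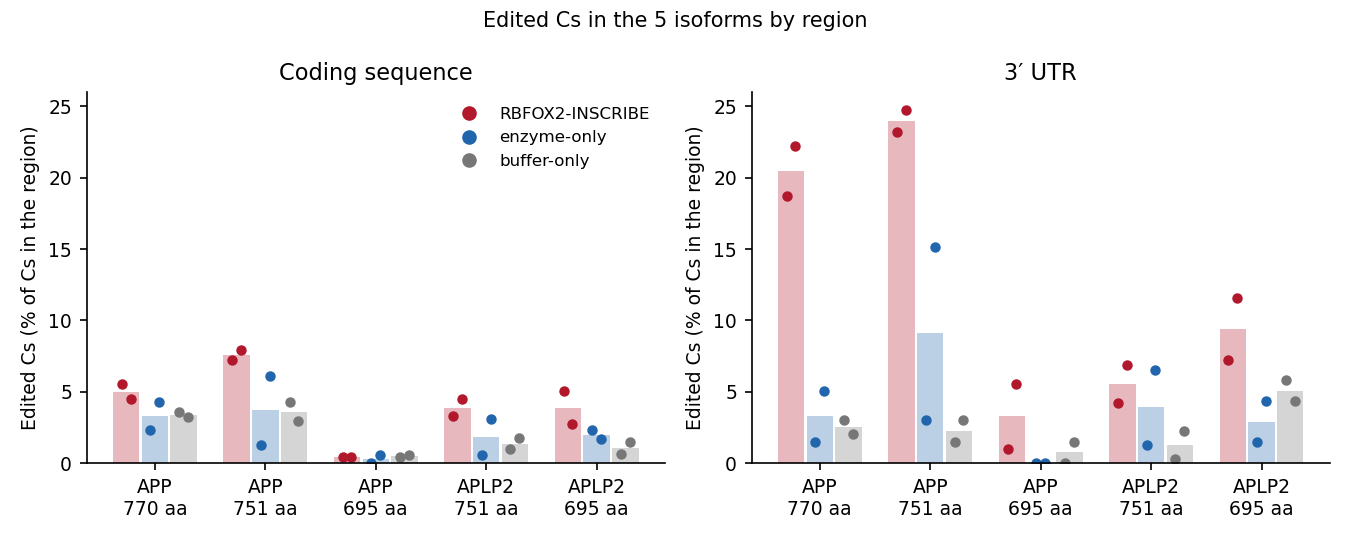
Edited Cs as a percentage of the Cs in the coding sequence (left) and 3′ UTR (right) of each isoform. Points are single libraries and bars are means of 2 libraries. In the 3′ UTR of APP770 and APP751 both RBFOX2-INSCRIBE libraries lie above every control library, and for APLP2-751 they overlap the enzyme-only control.

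The APP770 3′ UTR had 37 and 44 edited Cs in RBFOX2-INSCRIBE, 3 and 10 in enzyme-only replicates 2 and 3, and 6 and 4 in the buffer-only control. It was 6.74-fold higher than in the enzyme-only control (log2 difference 2.75, SE 0.71, limma adjusted p = 0.0587), larger than 94.3% of the 3623 3′ UTRs tested, and did not pass the threshold, which 0.607% of them passed. The APP751 3′ UTR had 46 and 49, then 6 and 30, then 3 and 6 edited Cs. Its difference was 1.77 (SE 0.70, limma adjusted p = 0.174), larger than in 80.5% of 3′ UTRs. The median 3′ UTR was 2.13-fold higher, and in 60.6% neither enzyme-only library reached either RBFOX2-INSCRIBE library. Leaving out enzyme-only replicate 3 brought both APP 3′ UTRs past the threshold, at 3.54 and 2.88 (limma adjusted p = 0.0108 for each), as it did for 1774 of 3689 3′ UTRs in all.

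The APLP2-751 3′ UTR behaved otherwise. It had 13 and 21 edited Cs in RBFOX2-INSCRIBE, 4 and 20 in enzyme-only replicates 2 and 3, and 1 and 7 in the buffer-only control, so that RBFOX2-INSCRIBE overlapped the enzyme-only control. The difference was 0.83 (SE 0.80, limma adjusted p = 0.470) and turned to -0.27 without enzyme-only replicate 2 and to -0.16 with scaling. The APLP2-695 3′ UTR had 5 and 8, then 1 and 3, then 4 and 3 edited Cs, and was under the minimum for the test against the enzyme-only control. The APP695 3′ UTR had 2 and 11 edited Cs in RBFOX2-INSCRIBE, none in the enzyme-only control, and 0 and 3 in the buffer-only control, and was not tested.

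**Figure D2:**
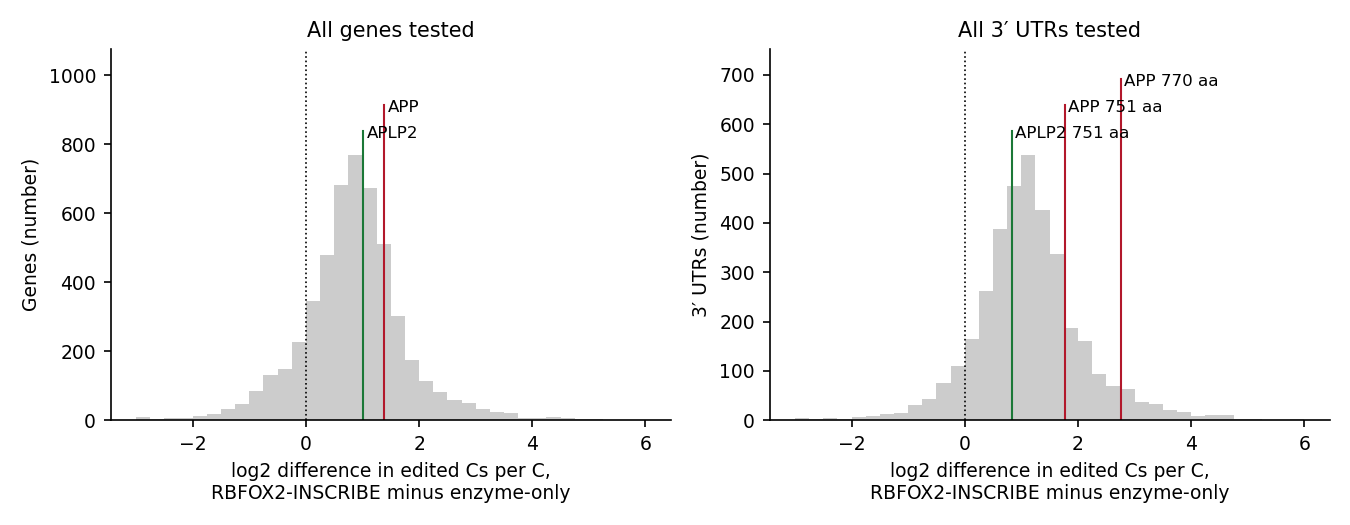
Number of genes (left) and of 3′ UTRs (right) by their log2 difference in edited Cs per C, RBFOX2-INSCRIBE minus enzyme-only. Vertical lines mark APP and APLP2, and values outside the axis are in the end bins. The APP770 3′ UTR lies at 2.75, above 94.3% of 3′ UTRs, and the APLP2-751 3′ UTR at 0.83 lies below the median.

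Against the buffer-only control, the 3′ UTRs of APP770 (log2 difference 2.92, SE 0.32, limma adjusted p = 0.00152), APP751 (3.33, SE 0.37, limma adjusted p = 0.00157) and APLP2-751 (2.34, SE 0.82, limma adjusted p = 0.0397) rose, and that of APLP2-695 was not called (0.78, SE 0.34, limma adjusted p = 0.0766). That was 3 of 4, where 74.5% of 3311 3′ UTRs rose. The 3′ UTRs of APP751, APLP2-751 and APLP2-695 averaged 4.5, 4 and 3.5 edited Cs in the buffer-only control. They thus reached the minimum only through RBFOX2-INSCRIBE. In the coding sequence none of the 4 isoforms tested was called against the buffer-only control, where 35.8% of 2710 were. None was called against the enzyme-only control either, where 0% of 3020 coding sequences were called and 323 had an unadjusted p under 0.05. The coding sequence difference against the enzyme-only control was 0.64 (SE 0.69) for APP770, 1.39 (SE 0.77) for APP751, 1.42 (SE 0.82) for APLP2-751 and 0.88 (SE 0.71) for APLP2-695.

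The gain in the 3′ UTR was then set against the gain in the coding sequence of the same isoform. In APP770 the difference of gains was 2.11 on the log2 scale (SE 0.55, unadjusted p = 0.0082, adjusted p = 0.590, limma). In APP751 it was 0.38 (SE 0.52) and in APLP2-751 it was -0.59 (SE 0.49), beside a median of 0.34 over all isoforms. Between the enzyme-only and buffer-only controls, without the antibody, it was 0.26 (SE 0.56) in APP770, 1.87 (SE 0.64, unadjusted p = 0.0212, adjusted p = 0.389, limma) in APP751 and 1.45 (SE 0.66) in APLP2-751. None passed the adjusted threshold, which 0% of 2008 isoforms passed for RBFOX2-INSCRIBE against enzyme-only and 0% of 1242 between the controls. In limma 167 and 153 of them had an unadjusted p under 0.05, and the median between the controls was 0.46. The share of edited Cs that lay in the 3′ UTR gives the same contrast without a fit. For APP it was 45.4% and 53.1% in RBFOX2-INSCRIBE, 30% and 38% in enzyme-only replicates 2 and 3, and 16.4% and 25.5% in the buffer-only control, where 24.3% of all APP Cs lie in the 3′ UTR. These 3 groups did not overlap, and how often this holds over all genes was not computed. For APLP2 it was 31.6% and 45.2%, then 26.3% and 46.7%, then 35.7% and 36%, and the groups overlapped around the 36.5% of its Cs. The exact permutation test of 2 libraries against 2 cannot go below p = 0.33, which it gave for each pair of groups in APP.

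**Figure D3:**
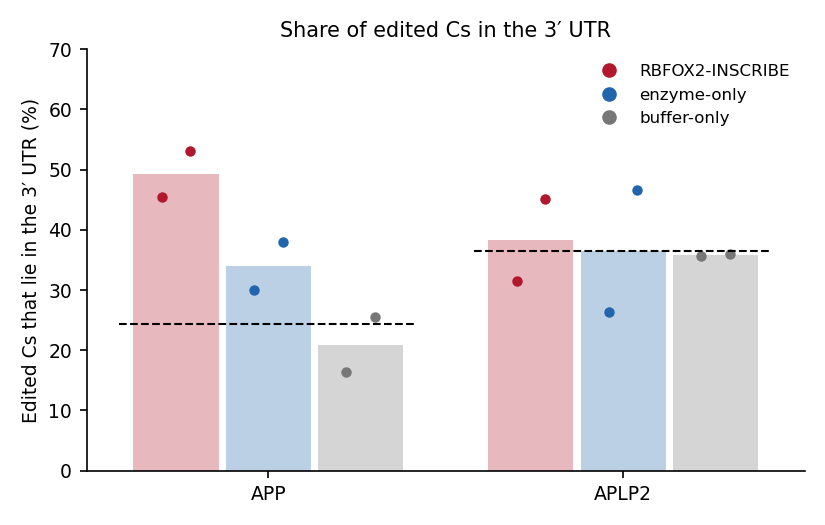
Percentage of the edited Cs of each gene that lie in its 3′ UTR. Points are single libraries, bars are means of 2 libraries, and dashed lines show the percentage of the gene's Cs that lie in the 3′ UTR. For APP the groups are separated, with RBFOX2-INSCRIBE at 45.4% and 53.1%, and for APLP2 they overlap. How often the groups separate over all genes was not computed.

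Per C, the 3′ UTR of APP was edited 5.49 and 4.31 times as often as that of APLP2 in RBFOX2-INSCRIBE. The ratio was 2.78 and 2.80 in enzyme-only replicates 2 and 3 and 2.78 and 2.23 in the buffer-only control. RBFOX2-INSCRIBE did not overlap the controls (exact permutation p = 0.33, the smallest the design allows), and other pairs of genes were not compared. Over all exons the ratio of APP to APLP2 was 2.55 and 2.44 in RBFOX2-INSCRIBE, 1.63 and 2.29 in enzyme-only replicates 2 and 3, and 4.04 and 2.10 in the buffer-only control.

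Within the 3′ UTR of APP, a larger share of Cs was edited near UGCAUG than farther away in RBFOX2-INSCRIBE. The motif has 274 nt of the 3′ UTR on its 5′ side and 840 nt on its 3′ side. Of the 76 Cs within 200 nt of the motif, 39 and 46 were edited in RBFOX2-INSCRIBE, 2 and 19 in enzyme-only replicates 2 and 3, and 3 and 4 in the buffer-only control. These were 55.9% ± 6.51 (SD, n = 2), 13.8% ± 15.8 and 4.61% ± 0.930 of the Cs. Of the 122 Cs farther away, 25 and 32 were edited in RBFOX2-INSCRIBE, 7 and 19 in enzyme-only replicates 2 and 3, and 6 and 9 in the buffer-only control. Near the motif the Cs were edited 2.50 and 2.31 times as often as farther away in RBFOX2-INSCRIBE. This ratio was 0.459 and 1.61 in enzyme-only replicates 2 and 3 and 0.803 and 0.713 in the buffer-only control.

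A like ratio, with 0.5 added to each count and the 2 libraries of a group pooled, was computed for the most edited isoform of 988 genes with 1 UGCAUG in the 3′ UTR. These genes had at least 30 Cs near and 30 far from it and at least 10 edits there in RBFOX2-INSCRIBE, so they were chosen through that group. APP751 had 2.62 in RBFOX2-INSCRIBE, where the median gene had 1.30 and 78.3% of genes were below APP751. In the enzyme-only control APP751 had 1.61 and the median gene 1.07, with 67.8% of genes below APP751. In the buffer-only control they had 1.31 and 1.14, with 57.1% below APP751. This ratio for other genes is a description, with no test.

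**Figure D4:**
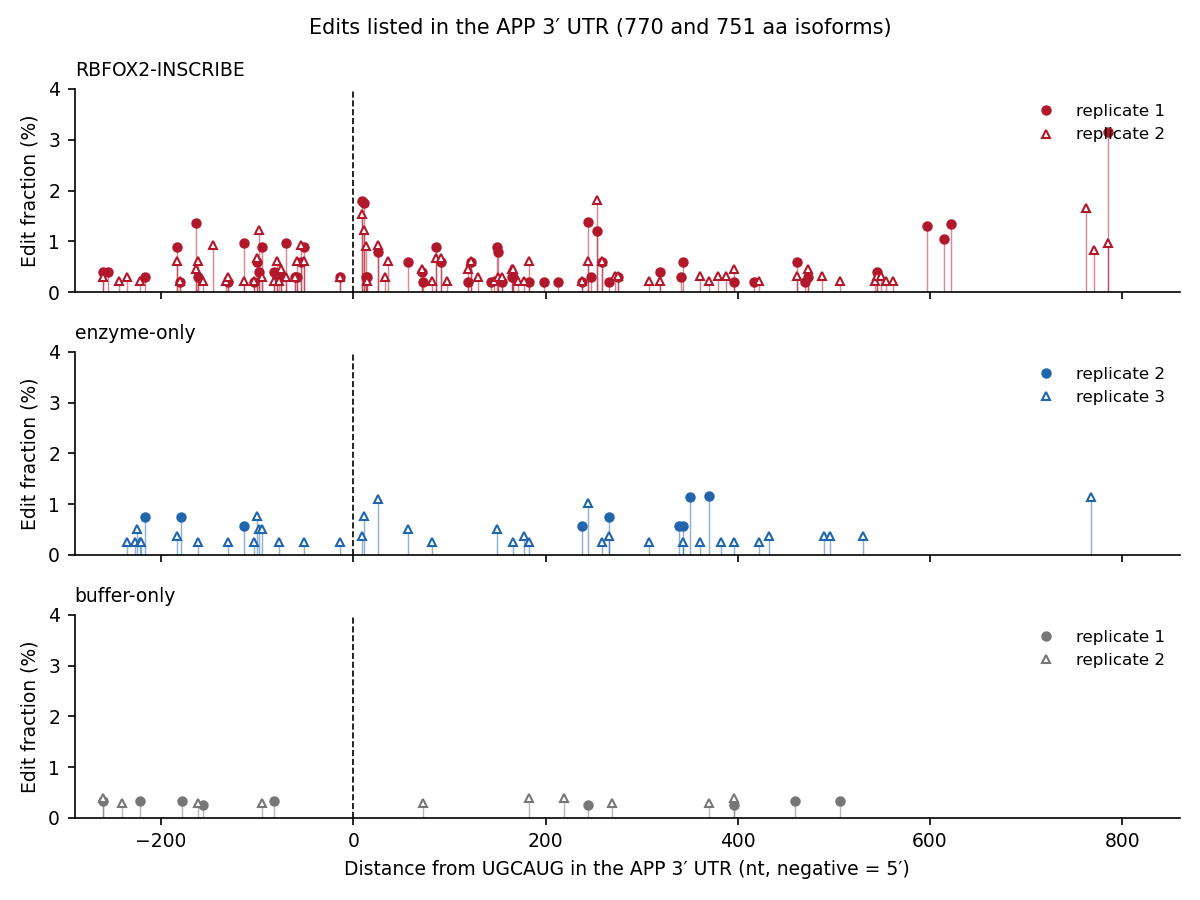
Edit fraction of each edited C in the APP 3′ UTR against its distance from UGCAUG (dashed line), by group. Each C has the higher fraction of APP770 and APP751, and symbols tell the 2 replicates apart. The edits of RBFOX2-INSCRIBE are densest within 200 nt of the motif, and no buffer-only edit lies within 50 nt.

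The share of edited Cs was highest on the 5′ flank, between 51 and 100 nt from the motif. All but 1 of its 12 Cs were edited in RBFOX2-INSCRIBE replicate 1 and all 12 in replicate 2. In enzyme-only replicates 2 and 3, 0 and 5 of them were edited, and each buffer-only library edited 1. On the 3′ side, 5 and 7 of the 12 Cs within 50 nt were edited in RBFOX2-INSCRIBE, 0 and 3 in enzyme-only replicates 2 and 3 and none in the buffer-only control. From 51 to 100 nt on that side 5 of 9 Cs were edited in each RBFOX2-INSCRIBE library, and between 100 and 200 nt 10 and 11 of 19 were. Beyond 400 nt 10 and 14 of 65 Cs were. In RBFOX2-INSCRIBE replicate 1 the lowest fraction of APP770 was 0.299%, while its edits 615 and 785 nt after the motif had 1.05% and 3.16%. In replicate 2 the lowest was 0.307%, and the edit at 785 nt had 0.971%. The part of read depth in the lower share of edited Cs there was not tested. The C inside UGCAUG was listed as edited in no library, and of the 4 Cs in the 50 nt before the motif 1 was edited in each RBFOX2-INSCRIBE library.

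**Figure D5:**
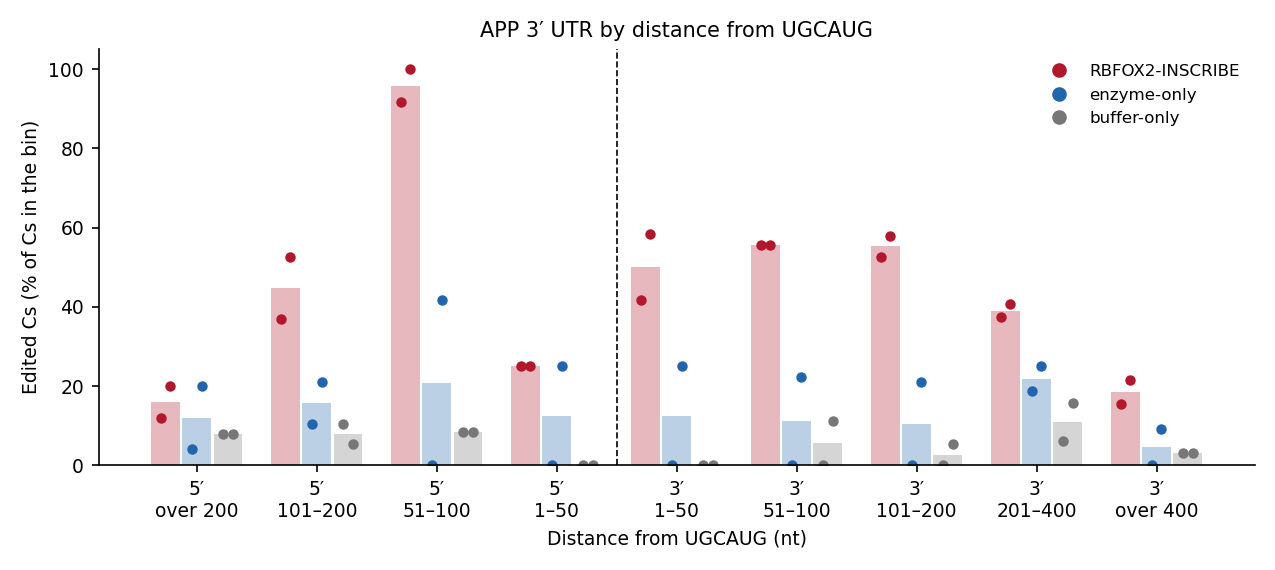
Edited Cs as a percentage of the Cs in bins of distance from UGCAUG in the APP 3′ UTR, 5′ bins to the left and 3′ bins to the right of the dashed line. Points are single libraries and bars are means of 2 libraries. RBFOX2-INSCRIBE reaches 91.7% and 100% from 51 to 100 nt on the 5′ side.

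The 30 nt of the APP 3′ UTR with the most Cs edited in both RBFOX2-INSCRIBE libraries lay in that flank, at positions -104 to -75 relative to UGCAUG. It is shown with those Cs in capitals, as the stretch where edits recurred most.
APP 3′ UTR flank, chr21:25881470-25881499: uCcaCaCauCaguaauguauuCuauCucuC
Of its 9 Cs, 7 and 8 were edited in RBFOX2-INSCRIBE, 0 and 5 in enzyme-only replicates 2 and 3, and 1 in each buffer-only library. The stretch was chosen by its edits in RBFOX2-INSCRIBE, which favours that group in this comparison.

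Sites of the APP 3′ UTR were ranked by the lower of their fractions in the 2 RBFOX2-INSCRIBE libraries, taking the higher of APP770 and APP751 in each and leaving out APP695, whose listed fractions all start higher. Of the first 5, 3 followed the motif by at most 26 nt and the others by 254 and 785 nt. They are given with the edited C in capitals.
APP, C at 25881381, 9 nt after UGCAUG, chr21:25881371-25881391: ugaauagauuCucuccugauu
APP, C at 25881379, 11 nt after UGCAUG, chr21:25881369-25881389: aauagauucuCuccugauuau
APP, C at 25881364, 26 nt after UGCAUG, chr21:25881354-25881374: gauuauuuauCacauagcccc
APP, C at 25881136, 254 nt after UGCAUG, chr21:25881126-25881146: cugcauuuuaCuguacagauu
APP, C at 25880605, 785 nt after UGCAUG, chr21:25880595-25880615: uaagauguguCuucaauuugu
At 25881381 the fraction in APP770 was 1.79% and 1.53% in RBFOX2-INSCRIBE and 0.366% in enzyme-only replicate 3. In APP751 it was 1.37% and 1.35%, against 0.257%. This site was thus higher in both isoforms and both RBFOX2-INSCRIBE libraries than in the only control library that listed it. Ranking by the fractions in RBFOX2-INSCRIBE favours such an order at all the sites shown, so their comparison with the controls is a description. At 25881379 the fraction was 0.597% and 1.23% in APP770 and 1.76% and 1.12% in APP751, and enzyme-only replicate 3 listed 0.771% for APP751 alone. At 25881364 the order was not the same in both isoforms. In APP770 enzyme-only replicate 3 had 1.10%, above the 0.597% and 0.920% of RBFOX2-INSCRIBE, and in APP751 it had 0.257%, below their 0.781% and 0.449%. No buffer-only library listed any of these sites. Their absence from enzyme-only replicate 2 was fixed in advance, because no position listed in all 4 libraries treated with APO1-Nb remains in the data.

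The far sites were listed in no control library. The C at 25881136 had between 0.310% and 1.81% in APP770 and APP751 of both RBFOX2-INSCRIBE libraries. The C at 25880605 had 3.16% and 0.971% in APP770 and was not listed in APP751.

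More of the edited Cs recurred between the RBFOX2-INSCRIBE libraries in the 3′ UTR of APP than in its coding sequence. Of 115 Cs edited in any library in the 3′ UTR, 46 were edited in both RBFOX2-INSCRIBE libraries, which was 71.9% of the smaller set. Of 222 Cs edited in the coding sequence, 18 were edited in both, or 26.9% of the smaller set. Over all genes and regions the overlap was 25.1% of the smaller set, close to that of the APP coding sequence. A larger share of the Cs was edited in the 3′ UTR in each of these libraries, and its part in the overlap was not tested. Of the 46 recurrent Cs in the 3′ UTR, 25 were listed in none of the 4 control libraries. In the coding sequence 8 were of that kind. A C edited in both RBFOX2-INSCRIBE libraries could be listed in at most 1 enzyme-only library, as no position was listed in all 4 libraries treated with APO1-Nb. The share of recurrent Cs absent from the controls was not computed over all genes. No C of the 3′ UTR was edited in both enzyme-only libraries and in neither RBFOX2-INSCRIBE library, and none in both buffer-only libraries alone. Recurrent Cs were few in APLP2, with 8 in the coding sequence, all of them absent from the 4 control libraries, and 2 in the 3′ UTR, each also listed in 1 enzyme-only library. The recurrent C with the highest fraction in APLP2 was at 130109523, 13 nt after the UGCAUG of exon 2, as the shown sequence holds it. Its fraction in APLP2-751 was 1.65% and 0.787% in RBFOX2-INSCRIBE, and in APLP2-695 it was listed at 0.704% in replicate 1.

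Around the copies of UGCAUG in coding exons, a smaller share of Cs was edited in RBFOX2-INSCRIBE than around the copy in the APP 3′ UTR. Within 50 nt of the copy in APP exon 7, in the KPI domain, 9 and 7 of 39 Cs were edited in RBFOX2-INSCRIBE, 3 and 7 in enzyme-only replicates 2 and 3, and 2 and 4 in the buffer-only control. Around the copy in exon 5, 2 and 3 of 26 Cs were edited in RBFOX2-INSCRIBE, 0 and 3 in enzyme-only replicates 2 and 3, and 2 in each buffer-only library. Around the copy in APLP2 exon 2, 3 and 2 of 20 Cs were edited in RBFOX2-INSCRIBE, 1 and 2 in enzyme-only replicates 2 and 3, and none in the buffer-only control. Around the copy in the APP 3′ UTR, 6 and 8 of 17 Cs were edited in RBFOX2-INSCRIBE, 0 and 4 in enzyme-only replicates 2 and 3, and none in the buffer-only control. Only this last window did not overlap with the enzyme-only control among the 4, and the share of all windows without overlap was not computed. The windows of APP exon 5 and APLP2 exon 2 averaged 1.5 edited Cs in the enzyme-only control. They reached the minimum of 2 only through RBFOX2-INSCRIBE. For the APP 3′ UTR window the log2 difference was 2.31 (SE 1.19, limma adjusted p = 0.211). The median over all windows was 1.68, and 94.4% of them were higher in RBFOX2-INSCRIBE. None of the 4 windows was called. Of all 1156 windows 0% were called, and 402 had an unadjusted p under 0.05.

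A 300-nt stretch of the APP 3′ UTR (chr21:25881239-25881538), which holds UGCAUG, is the RNA that the study used as substrate of APO1-Nb in vitro. In the cells, 30 and 34 of its 56 Cs were edited in RBFOX2-INSCRIBE, 1 and 14 in enzyme-only replicates 2 and 3, and 1 and 2 in the buffer-only control. In the rest of the 3′ UTR, 34 and 44 of 142 Cs were edited in RBFOX2-INSCRIBE, 8 and 24 in enzyme-only replicates 2 and 3, and 8 and 11 in the buffer-only control. The stretch was thus edited at 57.1% ± 5.05 (SD, n = 2) of its Cs in RBFOX2-INSCRIBE and at 2.68% ± 1.26 in the buffer-only control.

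By exon, the last exon of APP held 70 and 80 edited Cs of 228 in RBFOX2-INSCRIBE, 11 and 40 in enzyme-only replicates 2 and 3, and 13 and 15 in the buffer-only control. Exon 7, the KPI exon, held 9 and 8 of 41 Cs, against 1 and 7 in enzyme-only replicates 2 and 3 and 3 and 4 in the buffer-only control. Exon 8, which only APP770 has, held none of 18 in RBFOX2-INSCRIBE, 2 and 1 in enzyme-only replicates 2 and 3, and none in the buffer-only control. Exons 16 and 17, which together encode amyloid-beta, held 6 and 4 of 15 and 4 and 6 of 25 Cs in RBFOX2-INSCRIBE. In the enzyme-only control these exons held 1 and 3, and 2 and 2, and in the buffer-only control 0 and 3, and 4 and 2.

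In APLP2 the KPI exon held 1 and 2 of 37 Cs in RBFOX2-INSCRIBE, 0 and 1 in enzyme-only replicates 2 and 3, and 0 and 2 in the buffer-only control. Its last exon held 19 and 30 of 334 Cs in RBFOX2-INSCRIBE, 6 and 21 in enzyme-only replicates 2 and 3, and 5 and 10 in the buffer-only control. The part of the APLP2-751 3′ UTR beyond the end of APLP2-695 held 7 and 12 of 237 Cs in RBFOX2-INSCRIBE, and 2 and 13 in enzyme-only replicates 2 and 3. The part that both isoforms share held 6 and 9 of 69 Cs in APLP2-751 and 5 and 8 in APLP2-695 in RBFOX2-INSCRIBE. In enzyme-only replicates 2 and 3 it held 2 and 7 in the long form and 1 and 3 in the short form.

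APOBEC1 favours Cs that follow A or U, and the edits of both genes were examined for that base. In APP, 55.3% and 66.7% of edited Cs followed A or U in RBFOX2-INSCRIBE, 63.3% and 63% in enzyme-only replicates 2 and 3, and 36.4% and 47.1% in the buffer-only control, where 46.7% of all its Cs did. In APLP2 the shares were 64.9% and 62.9%, then 63.2% and 60%, then 28.6% and 52%, where 46.3% of all its Cs did. Both groups treated with APO1-Nb lay above the buffer-only control in both genes (exact permutation p = 0.33), and did not separate from each other. Over all genes the mean share was 74.1% in RBFOX2-INSCRIBE, 65.6% in the enzyme-only control and 42.3% in the buffer-only control. The gap to the buffer-only control was thus general. Over all genes RBFOX2-INSCRIBE, at 73.5% and 74.8%, also lay above both enzyme-only libraries, of which replicate 3 was higher at 69.2%. In RBFOX2-INSCRIBE both APP and APLP2 lay below the shares over all genes. In the APP 3′ UTR alone the shares were 78.1% and 79.5% in RBFOX2-INSCRIBE, 55.6% and 81.6% in enzyme-only replicates 2 and 3, and 55.6% and 46.2% in the buffer-only control, where 59.1% of its Cs followed A or U. RBFOX2-INSCRIBE and the enzyme-only control overlapped there.

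The genes whose levels over the 6 libraries were most like those of APP and APLP2 were found among 4799 genes by the root mean square difference in log2 edited Cs per C. For APP they were RAB6A (0.14), NUP50 (0.17) and CPSF3 (0.20). For APLP2 they were RBM7 (0.16), CISD2 (0.17) and INSIG2 (0.18). RAB6A, for example, had 100 and 133 edited Cs of 724 in RBFOX2-INSCRIBE, 26 and 87 in enzyme-only replicates 2 and 3, and 46 and 45 in the buffer-only control.

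Of 30 genes that encode secretases, other proteases, binding partners and relatives of APP, 17 had a listed edit and 12 reached the minimum against the enzyme-only control. None of the 12 was called against the enzyme-only control, where 0.118% of all genes were. Their median log2 difference was 1.04, beside 0.85 over all genes, and 11 of the 12 were positive, as were 85.7% of all genes. Against the buffer-only control 8 of 12 rose and none fell, where 61.1% of all genes rose, with a median of 1.80 beside 1.54 over all genes. Against each other the controls gave no call among 7 genes.

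The alpha-secretase ADAM10 was the most edited of them on average, with 90 and 83 of 1941 Cs in RBFOX2-INSCRIBE, 30 and 77 in enzyme-only replicates 2 and 3, and 22 and 13 in the buffer-only control. It rose against the buffer-only control (2.32, SE 0.41, limma adjusted p = 0.00302) and its difference from the enzyme-only control was 0.84 (SE 0.69). The gamma-secretase subunit APH1A (1.40, SE 0.41) and the APP-binding protein ITM2B (2.20, SE 0.47) rose against the buffer-only control too. The metalloprotease ADAM9 had 25 and 23 edited Cs in RBFOX2-INSCRIBE, 0 and 9 in enzyme-only replicates 2 and 3, and 4 and 1 in the buffer-only control. It reached the minimum only through RBFOX2-INSCRIBE, and was not called against the enzyme-only control. The kinesin light chain KLC1 was not called against either control, at 0.80 (SE 1.58) and 0.93 (SE 0.86).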

How the data were processed

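The authors sequenced full-length cDNA on a PacBio Revio, aligned consensus reads to hg38 with pbmm2, assigned them uniquely to isoforms with IsoQuant and called edits with their own scripts. They left out dbSNP positions and, as likely SNPs, edits occurring in every sample. What they deposited is, for each isoform and position, the fraction of its reads that carried the edit, with no read numbers. The annotation release behind the isoforms is not given in the sources used here. GENCODE release 44 on the same build supplied exons and RNA sequences.

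Here, edited Cs within exons and on the isoform's strand were counted per gene, isoform, region and window of 50 nt on either side of UGCAUG. A feature was tested where the groups compared averaged 5 edited Cs or more (2 for windows). limma 3.58.1 (trended and robust) was fitted across all features to log2 of the number of edited Cs, plus 0.5, per C. The p-values were adjusted by Benjamini-Hochberg. A prior test of the procedure on simulated data scaled every library to the same total. The unscaled fits reported as main results were not tested that way. Single values were compared by two-sided exact permutation tests. The members and gene lists were chosen with earlier results of these data known. Region fits against the buffer-only control, the comparison of 3′ UTR and coding sequence gains, and the distances around UGCAUG were added after the data were seen. The genes named besides the members were the 3 nearest to each in level and the 6 most edited of the APP-related list, of which 1 is not reported here. Enzyme-only replicates carry their title numbers. Alternatives covered the pseudocount, minimum, scaling, groups fitted, replicate block, opposite-strand edits, minimum fraction, window, motif and each library left out.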

Additional observations from a re-analysis of the deposited data

How the results depend on the processing

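Read numbers are not listed, what depth limits was not tested, and with 2 libraries a group single libraries decided calls. Without enzyme-only replicate 3, 1664 genes were called against the enzyme-only control, and without either RBFOX2-INSCRIBE library limma called no gene against the buffer-only control, with 1746 (without replicate 1) and 1719 (without replicate 2) at an unadjusted p under 0.05. Of 198 values of APP and APLP2 under an alternative, 153 kept their direction and side of the threshold, 19 lost the call, 9 gained it and 17 changed sign. The cause was not tested.

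Genes called higher in RBFOX2-INSCRIBE than in the enzyme-only control numbered 6, and 0 with a pseudocount of 0.1, 29 with 1, 0 with a minimum of 1, 22 with a minimum of 10, 0 when scaled, 1 with all 3 groups in the fit, 1 with all listed edits, 0 with a fraction of at least 0.02, and 0 to 1664 with a library left out. APP ranged from 0.52 to 2.24 and APLP2 from 0.40 to 1.62 with a library left out. Against the buffer-only control the 2934 genes became 4 when scaled, 639 with the minimum fraction, and 0 to 2319 with a library left out. APP was -0.053 when scaled, 1.27 with the minimum fraction and 1.38 to 1.49 with a library left out, and APLP2 was 0.17 when scaled and 1.23 to 2.05 with a library left out. Between the controls the 23 genes became 35 with a pseudocount of 0.1, 8 with a minimum of 1, 5 with a minimum of 10, 0 when scaled, 63 with all groups, 0 with the minimum fraction and 0 to 1 with a library left out. APP was then -0.62 and APLP2 -0.030 when scaled, and APP ranged from -0.81 to 0.91.

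For isoforms, scaling gave 0, 9 and 0 calls and the minimum fraction 0, 599 and 0, in place of 3, 3217 and 36, for RBFOX2-INSCRIBE against each control and for the controls. Leaving out a library gave 0 to 1838, 321 to 2435 and 0 to 3. When scaled, RBFOX2-INSCRIBE minus buffer-only was -0.0037 for APP770 and -0.22 for APP695, and enzyme-only minus buffer-only was -0.086 for APLP2-751, -0.42 for APP751 and -0.21 for APLP2-695. With a library left out the latter ranged from -0.57 to 1.71 for APLP2-751, -0.60 to 0.51 for APP770 and -0.84 to 1.34 for APP751. The 22 3′ UTRs became 0 when scaled, 0 with the minimum fraction and 0 to 1774 with a library left out, and APLP2-751 was -0.16 when scaled and -0.27 to 1.92. The 0 motif windows became 64 within 25 nt, 37 with the minimum fraction and 129 to 181 with a library left out, and the window in APP exon 5 ranged from -0.24 to 1.40.

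With a replicate block, 27 genes were called against the enzyme-only control and 8 between the controls, and no call of APP or APLP2 changed. The correlation of the deviations of same-numbered libraries was 0.0469 between RBFOX2-INSCRIBE and buffer-only. By the replicate tag of the labels, which numbers enzyme-only replicates 2 and 3 as 1 and 2, it was 0.110 between RBFOX2-INSCRIBE and enzyme-only and -0.0245 between the controls. With 2 pairs these libraries share only a number.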

Other observations

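The edits on the opposite strand of APP exon 1 numbered 6 and 3 distinct positions in RBFOX2-INSCRIBE, 1 and 2 in enzyme-only replicates 2 and 3, and 3 and 0 in the buffer-only control. They lay between 26170578 and 26170723 on chromosome 21 (hg38), and the groups overlapped. APLP2 had no edit of this kind.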
